A study of Mus musculus with 15 samples.

Results

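The 32 genes described here encode the core machinery of autophagy, the process by which a cell encloses its own proteins and organelles in a membrane and delivers them to the lysosome for breakdown. They were taken by symbol from a list of known members, and all 32 were among the 15302 genes of the count table. They are the kinase complex that starts the process, the lipid kinase that marks the forming membrane, the proteins that supply and read that membrane, the conjugation enzymes, the ubiquitin-like ATG8 proteins, the cargo receptors, and a lysosomal part made up of Lamp1, Lamp2 and the transcription factor gene Tfeb. RNA was sequenced from livers of 15 mice with a wild-type genotype. From 8 weeks of age all were fed a MASH diet, MASH being liver steatosis with inflammation (steatohepatitis) of metabolic origin, and each mouse was housed alone at about 29°C, with groups matched on body weight and composition. The GDF15 group (5 libraries) received the recombinant hormone GDF15 by daily injection under the skin at 1 nmol/kg, in the morning. The PairFed group (5 libraries) was given as much food as GDF15 animals had eaten on the preceding day, and the Vehicle group (5 libraries) was the control. GDF15 acts on GFRAL, its hindbrain receptor, to reduce eating, so GDF15 vs PairFed asks what the hormone does beyond the lower intake. Strain, sex and treatment length were not stated in what was read here.

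Autophagy is known as a fasting response of the liver. When nutrients are plentiful the kinase complex mTORC1 holds back the ULK1 kinase, and when they are scarce that hold is released, much of it by phosphorylation rather than by new transcription. Transcription adds to it over hours, through TFEB and its relatives, which bind an E-box in the promoters of lysosomal and autophagy genes, and through FOXO factors, which are held back by insulin. The level of an autophagy transcript is therefore not a measure of how much cargo reaches the lysosome, and no such measure was made here.

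Total counts ran from 8551557 to 10914914 per library in GDF15, from 10133289 to 12933324 in PairFed and from 9228127 to 12994187 in Vehicle. The largest gap in total count parted 5 deeper libraries (PairFed 2 to 5 and Vehicle 4) from the other 10, and none of the 5 was from GDF15, so depth is partly tied to group. Library numbers follow the column order and serve as names. Nothing says whether they were collected or prepared on separate days, so p-values measure the spread between these libraries. The 8 hepatocyte markers summed to 93537 to 120704 CPM (the usual depth-scaled count, here with TMM-scaled library totals) in GDF15, 89398 to 110676 CPM in PairFed and 80483 to 101166 CPM in Vehicle. The 9 markers of recruited macrophages summed to 332 to 592 CPM in GDF15, 390 to 590 CPM in PairFed and 429 to 897 CPM in Vehicle, and no marker of either list was at 0 in all libraries. In GDF15 vs Vehicle 1 hepatocyte marker, Tat, rose and 1 macrophage marker, Ly6c2, fell. All 9 macrophage markers had negative fold changes in GDF15 vs Vehicle (median -0.40 log2) and in PairFed vs Vehicle (median -0.58). Of all 12274 tested genes, 6277 and 6153 were negative in these comparisons. Of the 8 hepatocyte markers 7 were positive in both. The 4 T and NK cell markers in the table summed to 1.67 to 2.29 CPM in GDF15, 1.92 to 3.47 CPM in PairFed and 2.46 to 6.83 CPM in Vehicle, and 2 of the 3 tested fell in GDF15 vs Vehicle. The 7 Kupffer cell markers summed to 221 to 461 CPM in GDF15, 286 to 406 CPM in PairFed and 319 to 459 CPM in Vehicle, and none passed the threshold. Among 6 endothelial, 6 stellate and 5 cholangiocyte markers, 1 cholangiocyte marker (Sox9) fell in PairFed vs Vehicle and no other was called in any comparison. All 6 stellate markers were negative in both comparisons with Vehicle. Of the 6 endothelial markers, 4 were positive in GDF15 vs Vehicle and 6 in PairFed vs Vehicle. A list of 14 immediate-early genes, fast responders to stress and handling, had a mean log2 CPM of 4.15 to 5.87 in GDF15, 4.49 to 5.44 in PairFed and 3.74 to 4.69 in Vehicle. Every GDF15 library but GDF15 3 was above every Vehicle library, so this score too is partly tied to group. A fit that holds the score therefore cannot fully separate it from group. Whether handling or the treatment itself moved the score was not tested. The part of depth, of cell makeup and of handling in the differences that follow was not tested beyond the fits given beside each result. In whole liver, fewer cells of a type and less RNA per cell cannot be told apart.

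All 32 genes passed the filter on low counts. In GDF15 vs Vehicle 3 of 32 rose and none fell at an adjusted p below 0.05 (edgeR's quasi-likelihood test, Benjamini-Hochberg over 12274 genes). They were Ulk1, Atg2a and Map1lc3b. Of all tested genes 2.90% changed, 2.02% upward and 0.880% downward. In PairFed vs Vehicle 1 of 32 rose, Atg2a, against 0.147% of all tested genes that rose and 0.285% that changed. In GDF15 vs PairFed 1 of 32 rose, Ulk1, against 0.562% of all tested genes that rose, 0.220% that fell and 0.782% that changed. The median log2 fold change over the 32 was 0.05 in GDF15 vs Vehicle, 0.06 in PairFed vs Vehicle and -0.02 in GDF15 vs PairFed, and over all tested genes it was -0.00, -0.00 and 0.00. Among all tested genes that changed, 69.7% were higher in GDF15 vs Vehicle and 51.4% in PairFed vs Vehicle. With upper-quartile scaling these shares were 58.7% and 32.5%, and Ulk1 was then the only member called in either comparison with Vehicle.

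**Figure D1:**
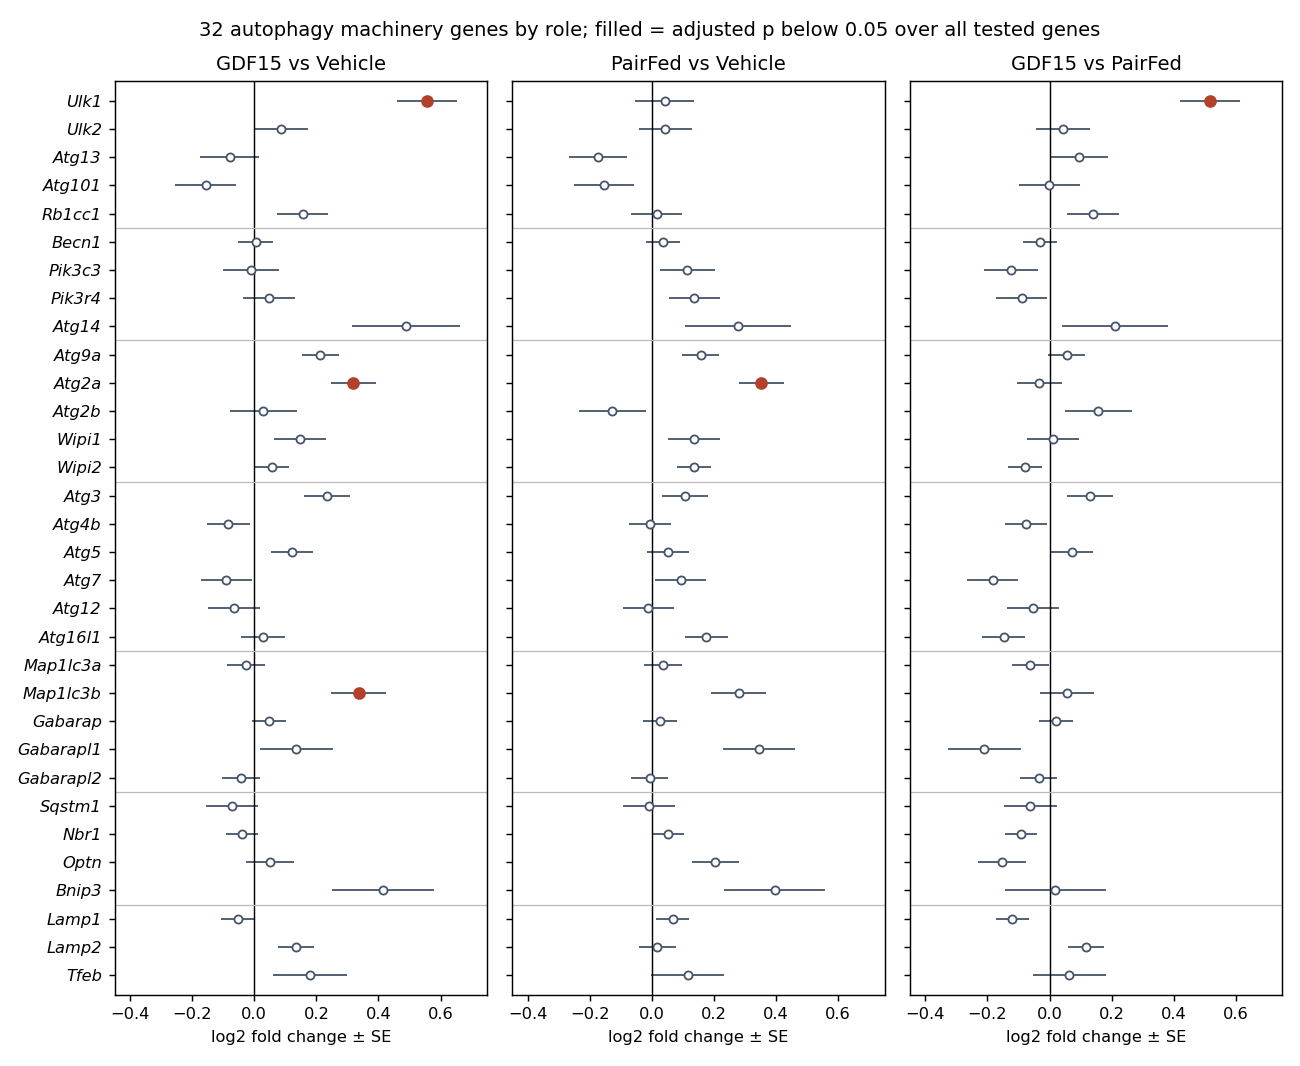
Log2 fold change with its standard error (SE) for each of the 32 genes (rows, grouped by role and parted by grey lines) in 3 comparisons, from one fit of 15 libraries. Filled points had an adjusted p below 0.05 over 12274 genes: Ulk1, Atg2a and Map1lc3b in GDF15 vs Vehicle, Atg2a in PairFed vs Vehicle, and Ulk1 in GDF15 vs PairFed.

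At a looser mark, an unadjusted p below 0.05, 8 members stood out in GDF15 vs Vehicle (25% against 16.7% of all tested genes), 8 in PairFed vs Vehicle (25% against 16.9%) and 4 in GDF15 vs PairFed (12.5% against 13.3%). All 8 were higher in each comparison with Vehicle, while in GDF15 vs PairFed 1 was higher and 3 were lower. All tested genes past this mark were not counted by direction, so these directions have no share to be set against. Both comparisons with Vehicle use the same 5 Vehicle libraries, so they are not independent of each other. The groups did not overlap for 2 of the 32 in GDF15 vs Vehicle (Ulk1 and Atg9a, against 3.99% of all tested genes), for 2 in PairFed vs Vehicle (Atg2a and Map1lc3b, against 3.92%) and for 1 in GDF15 vs PairFed (Lamp1, against 2.86%). The other 24 members in GDF15 vs Vehicle lay between -0.16 and 0.18 log2.

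The initiation complex joins the kinase ULK1 or its relative ULK2 to the scaffold proteins ATG13, ATG101 and RB1CC1 (FIP200). Ulk1 was the only one of the 32 called in both comparisons of GDF15. It was at 184, 206, 151, 203 and 187 CPM in the GDF15 libraries, at 160, 130, 108, 122 and 131 CPM in the PairFed libraries, and at 139, 128, 129, 114 and 122 CPM in the Vehicle libraries. Every GDF15 library lay above every Vehicle library, and 4 of the 5 lay above every PairFed library; the lowest GDF15 library (GDF15 3) was below the highest PairFed library (PairFed 1). Ulk1 averaged 186 ± 21.8 CPM in GDF15, 130 ± 18.7 CPM in PairFed and 127 ± 9.11 CPM in Vehicle (SD, n = 5 each).

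Relative to Vehicle, Ulk1 rose 1.47-fold in GDF15 (log2 fold change 0.56 ± 0.10 SE, adjusted p = 0.00371). Relative to PairFed it rose 1.43-fold (0.52 ± 0.10, adjusted p = 0.0178). In PairFed vs Vehicle Ulk1 stood at 0.04 ± 0.10 (adjusted p = 0.864), with a 95% interval of -0.16 to 0.24, and its sign turned under some alternatives. The rise over Vehicle passed the threshold without each of the 15 libraries in turn (adjusted p between 0.000825 and 0.0171), and was lost when the immediate-early score entered the model (0.37, adjusted p = 0.477), a fit in which 9 genes in place of 356 were called. With that score in the model, Ulk1 in GDF15 vs PairFed kept its call (0.45, adjusted p = 0.0299). The rise over PairFed lost its call without GDF15 2 (adjusted p = 0.0625), PairFed 4 (adjusted p = 0.0759) or PairFed 5 (adjusted p = 0.0538), and when the model held a depth term (deeper or shallower; 0.30, adjusted p = 0.475). In the 10 shallower libraries alone it was 0.22 (adjusted p = 1), with 1 PairFed library. PairFed 1, the 1 PairFed library that was not deeper, had the highest Ulk1 level of its group.

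Ulk2, which can stand in for ULK1 in some cells, averaged 64.5 ± 5.05 CPM in GDF15, 62.6 ± 4.27 CPM in PairFed and 60.8 ± 8.61 CPM in Vehicle, with overlapping libraries. Within a library the count of Ulk1 was 2.63 to 3.31 times that of Ulk2 in GDF15, 1.84 to 2.74 times in PairFed and 1.74 to 2.52 times in Vehicle, not corrected for length. The ratio in each GDF15 library was thus above that in each Vehicle library. Of the scaffold genes, Rb1cc1 averaged 37.6 ± 4.09 CPM in GDF15, 34.1 ± 3.16 CPM in PairFed and 33.7 ± 2.36 CPM in Vehicle. Atg13 averaged 59.3 ± 5.36 CPM in GDF15, 55.6 ± 8.79 CPM in PairFed and 62.7 ± 3.92 CPM in Vehicle, and Atg101 25.5 ± 4.17, 25.5 ± 0.986 and 28.4 ± 3.28 CPM in the same groups. None of these 4 genes passed the threshold in any comparison, and their libraries overlapped between all groups. Of the 31-base words in the principal transcript of Rb1cc1, 21.4% occur in other genes of the annotation, on either strand. Cnnm3, among those that share most, is in the count table, so the counts of Rb1cc1 are uncertain.

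The class III phosphatidylinositol 3-kinase makes the lipid PI3P on the forming membrane. Its catalytic subunit gene Pik3c3 (VPS34), its anchor gene Pik3r4 (VPS15) and Becn1 (Beclin 1) did not pass the threshold in any comparison. Becn1 averaged 59.6 ± 2.44 CPM in GDF15, 60.8 ± 2.46 CPM in PairFed and 59.4 ± 3.48 CPM in Vehicle. Of the 31-base words in the principal transcript of Becn1, 48.3% occur in other genes of the annotation, on either strand. Cntd1 and Ptk2, among those that share most, are in the count table, so the counts of Becn1 are uncertain. Pik3c3 averaged 21.7 ± 3.0, 23.6 ± 1.29 and 21.8 ± 1.48 CPM, and Pik3r4 26.6 ± 1.59, 28.2 ± 2.45 and 25.8 ± 2.86 CPM, in GDF15, PairFed and Vehicle. Atg14, whose protein directs the kinase to autophagy, varied more between libraries. It was at 31.9, 34.1, 21.0, 25.2 and 30.2 CPM in the GDF15 libraries, at 24.3, 33.4, 18.2, 21.9 and 24.7 CPM in the PairFed libraries, and at 16.1, 20.6, 16.3, 25.8 and 21.9 CPM in the Vehicle libraries. Its fold change in GDF15 vs Vehicle was the second largest of the 32 (0.49 ± 0.17 SE) and did not pass the threshold (adjusted p = 0.15). It was 0.31 with 1 surrogate variable (adjusted p = 0.438) and 0.06 with the immediate-early score (adjusted p = 0.998). Its coefficient of variation was the highest of the 32 both in GDF15 (18.6%) and in PairFed (22.9%), against medians over the members of 7.40% and 6.29%.

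ATG2 proteins carry lipid from the endoplasmic reticulum into the growing membrane, ATG9A vesicles seed it, and WIPI1 and WIPI2 read PI3P on it. All 5 genes of this group had positive fold changes in GDF15 vs Vehicle (median 0.15), and 4 of 5 in PairFed vs Vehicle (median 0.14). Atg2a was at 59.2, 73.1, 62.9, 77.8 and 70.8 CPM in the GDF15 libraries, at 63.8, 71.4, 73.3, 70.1 and 73.0 CPM in the PairFed libraries, and at 59.5, 50.9, 53.1, 55.2 and 56.8 CPM in the Vehicle libraries. All PairFed libraries lay above all Vehicle libraries, and 4 of 5 GDF15 libraries did, GDF15 1 being just under Vehicle 1.

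Atg2a rose 1.25-fold in GDF15 vs Vehicle (0.32 ± 0.07 SE, adjusted p = 0.0251) and 1.28-fold in PairFed vs Vehicle (0.35 ± 0.07, adjusted p = 0.0478). Between GDF15 and PairFed it differed by -0.03 ± 0.07 (adjusted p = 0.894, 95% interval -0.19 to 0.12), with a sign that turned under some alternatives. In GDF15 vs Vehicle the call was lost without Vehicle 2, Vehicle 3, GDF15 2 or GDF15 4 (adjusted p from 0.0537 to 0.0869). In PairFed vs Vehicle it was kept only without Vehicle 5, GDF15 1, GDF15 3 or PairFed 1, was lost without each of the other 11 libraries (adjusted p up to 0.139), and was lost with the depth term (0.30, adjusted p = 0.281). With the immediate-early score Atg2a stood at 0.35 in GDF15 vs Vehicle (adjusted p = 0.359). Over all 26 alternatives the call was kept in 18 for GDF15 vs Vehicle and in 9 for PairFed vs Vehicle.

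Atg9a was at 80.9, 78.0, 71.5, 83.5 and 74.8 CPM in GDF15, at 78.6, 80.6, 71.0, 71.8 and 72.2 CPM in PairFed, and at 65.9, 67.7, 63.1, 71.4 and 67.2 CPM in Vehicle. The GDF15 and Vehicle libraries did not overlap, but by a margin of 71.5 against 71.4 CPM. The change of 0.21 ± 0.06 was short of the threshold by edgeR's test (adjusted p = 0.0615) and past it in DESeq2 (adjusted p = 0.0243). Atg9a was at 0.16 ± 0.06 in PairFed vs Vehicle (adjusted p = 0.186). Of the 31-base words in its principal transcript, 44.2% occur in another gene, Gm29253, which is not in the count table, so its counts are uncertain. Atg2b averaged 30.1 ± 3.70 CPM in GDF15, 27.0 ± 1.04 CPM in PairFed and 29.5 ± 5.72 CPM in Vehicle, and the Atg2a count was 1.84 to 3.17 times that of Atg2b in GDF15, 2.28 to 2.80 times in PairFed and 1.30 to 2.24 times in Vehicle. Wipi1 averaged 19.1 ± 1.94 CPM in GDF15, 19.0 ± 1.28 CPM in PairFed and 17.3 ± 1.42 CPM in Vehicle. Wipi2 averaged 72.1 ± 1.78, 76.2 ± 3.91 and 69.3 ± 4.09 CPM in these groups and was at 0.14 ± 0.06 in PairFed vs Vehicle (adjusted p = 0.215).

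**Figure D2:**
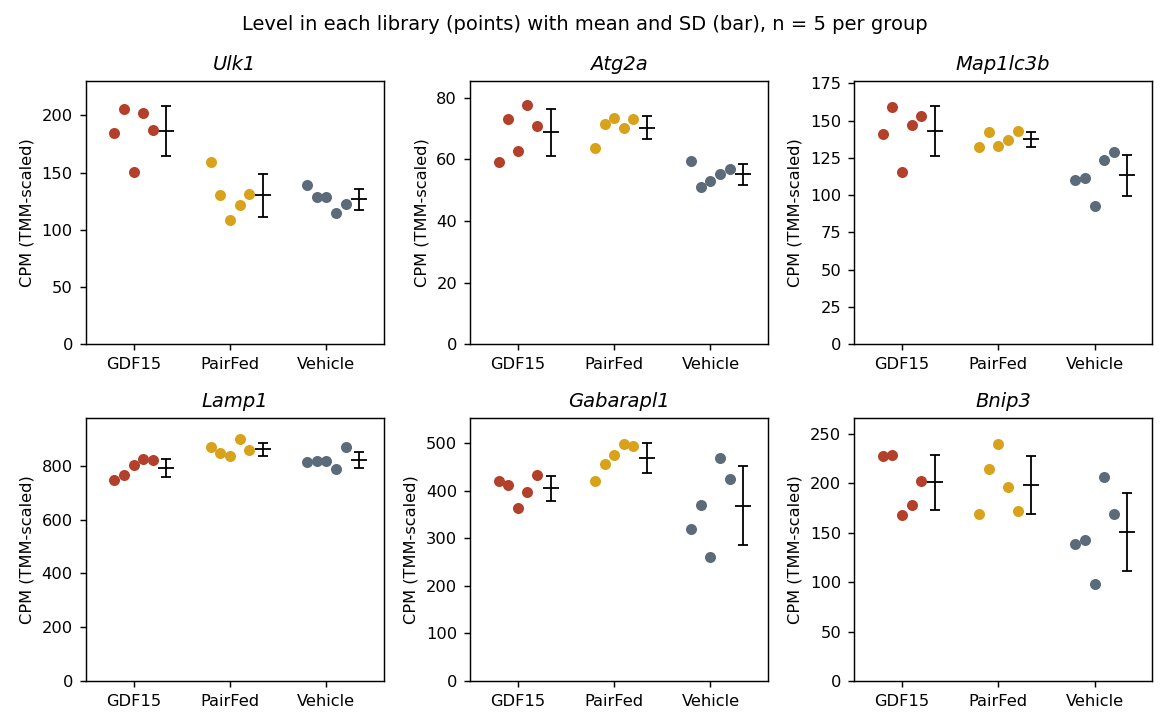
CPM (vertical axis, from 0) in each library of GDF15, PairFed and Vehicle for 6 members, with the group mean and SD (n = 5) beside the points. GDF15 libraries stand above all Vehicle and most PairFed libraries for Ulk1, both GDF15 and PairFed stand above most Vehicle libraries for Atg2a and Map1lc3b, and Lamp1 in GDF15 lies below PairFed.

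ATG8 proteins are ubiquitin-like and are joined to lipid on the autophagosome, where they hold cargo receptors. Of their 5 genes, Map1lc3b (LC3B) rose in GDF15. It was at 141, 159, 115, 147 and 153 CPM in the GDF15 libraries, at 132, 142, 133, 137 and 143 CPM in the PairFed libraries, and at 110, 111, 92.7, 124 and 129 CPM in the Vehicle libraries. Every PairFed library and 4 of 5 GDF15 libraries were above the highest Vehicle library. The rise in GDF15 vs Vehicle was 1.26-fold (0.34 ± 0.09 SE, adjusted p = 0.0485), and the difference in PairFed vs Vehicle was 0.28 ± 0.09 (adjusted p = 0.136). Between GDF15 and PairFed Map1lc3b differed by 0.06 ± 0.09 (adjusted p = 0.841). The call in GDF15 vs Vehicle was kept only without Vehicle 4, Vehicle 5 or GDF15 3 and was lost without each of the other 12 libraries (adjusted p up to 0.153). It was also lost in limma-voom (adjusted p = 0.0591), and the immediate-early score brought the change to 0.13 (adjusted p = 0.976). Over all 26 alternatives it was kept in 6. Of the 31-base words in its principal transcript, 17.3% occur in other genes of the annotation, and the 3 that share most are not in the count table.

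Gabarapl1 had the highest level per kilobase among the ATG8 genes and a wide spread in Vehicle. It was at 421, 413, 364, 398 and 432 CPM in GDF15, at 421, 456, 476, 498 and 495 CPM in PairFed, and at 319, 371, 262, 469 and 426 CPM in Vehicle. Its change in PairFed vs Vehicle, 0.35 ± 0.12, was about as large as that of Atg2a but did not pass the threshold (adjusted p = 0.158), with 2 Vehicle libraries inside the PairFed range. With the depth term it was 0.16 (adjusted p = 0.648). The other 3 genes passed the threshold in no comparison. Gabarap averaged 224 ± 11.4 CPM in GDF15, 220 ± 11.5 CPM in PairFed and 216 ± 7.25 CPM in Vehicle. Map1lc3a averaged 40.2 ± 1.64, 41.9 ± 2.11 and 40.9 ± 2.98 CPM, and Gabarapl2 46.9 ± 2.53, 48.0 ± 2.65 and 48.2 ± 2.75 CPM, in GDF15, PairFed and Vehicle. The count of Map1lc3b was 2.76 to 4.16 times that of Map1lc3a in GDF15, 3.08 to 3.67 times in PairFed and 2.40 to 2.89 times in Vehicle. Of the 31-base words in the principal transcript, 19.5% for Gabarapl1 and 21.3% for Gabarapl2 occur in other genes of the annotation. The genes that share most with them are not in the count table, so the counts of both are uncertain.

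The conjugation enzymes attach ATG8 proteins to lipid: ATG4B trims them, ATG7 activates them, ATG3 transfers them, and ATG12, ATG5 and ATG16L1 form the complex that places them. None of the 6 genes passed the threshold in any comparison, and the median fold change was -0.02 log2 in GDF15 vs Vehicle. Atg3 averaged 70.7 ± 3.69 CPM in GDF15, 64.6 ± 5.03 CPM in PairFed and 60.0 ± 6.31 CPM in Vehicle (0.24 ± 0.07 SE in GDF15 vs Vehicle, adjusted p = 0.0955). Without Vehicle 2, whose Atg3 level of 68.3 CPM was the highest of its group, that difference was 0.29 (adjusted p = 0.0466). Atg7 was at 55.3, 54.3, 52.7, 62.1 and 52.8 CPM in GDF15, at 64.2, 55.1, 67.7, 67.1 and 60.5 CPM in PairFed, and at 59.2, 61.5, 47.3, 64.2 and 62.6 CPM in Vehicle. GDF15 4 and PairFed 2 made the GDF15 and PairFed ranges of Atg7 overlap, and the difference stood at -0.18 ± 0.08 (adjusted p = 0.342). Atg16l1 was at 31.3, 27.4, 29.8, 29.0 and 27.2 CPM in GDF15, at 28.5, 33.0, 35.9, 32.0 and 30.8 CPM in PairFed, and at 27.6, 27.2, 27.1, 31.1 and 28.7 CPM in Vehicle. PairFed held the 3 highest libraries, with overlap below them, and the difference was -0.15 ± 0.07 in GDF15 vs PairFed (adjusted p = 0.373) and 0.18 ± 0.07 in PairFed vs Vehicle (adjusted p = 0.207). With the depth term Atg16l1 was at 0.01 in GDF15 vs PairFed and at 0.06 in PairFed vs Vehicle. Atg5, Atg12 and Atg4b averaged 52.7 ± 4.83, 30.7 ± 2.53 and 26.6 ± 1.85 CPM in GDF15, 50.1 ± 2.62, 31.8 ± 2.93 and 28.1 ± 1.32 CPM in PairFed, and 48.4 ± 2.94, 32.1 ± 3.16 and 28.2 ± 2.04 CPM in Vehicle, with overlapping libraries.

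Cargo receptors bind what is to be degraded and an ATG8 protein at once. Sqstm1 (p62) and Nbr1 take ubiquitinated proteins, Optn takes ubiquitinated cargo such as damaged mitochondria, and Bnip3 sits in the outer membrane of mitochondria. None of the 4 passed the threshold in any comparison. Sqstm1, an abundant member, was at 504, 588, 632, 592 and 583 CPM in GDF15, at 620, 547, 556, 649 and 654 CPM in PairFed, and at 624, 523, 713, 567 and 620 CPM in Vehicle, with all 3 groups overlapping. Bnip3 was at 227, 229, 168, 178 and 203 CPM in GDF15, at 169, 214, 240, 196 and 172 CPM in PairFed, and at 138, 142, 98.0, 206 and 169 CPM in Vehicle. Its fold changes were among the largest of the 32, at 0.41 ± 0.16 in GDF15 vs Vehicle (adjusted p = 0.213) and 0.39 ± 0.16 in PairFed vs Vehicle (adjusted p = 0.238), and so was its spread, with a coefficient of variation of 26.5% in Vehicle. Bnip3 was at 0.20 in GDF15 vs Vehicle with the immediate-early score and at 0.15 in PairFed vs Vehicle with the depth term (adjusted p = 0.998 and 0.773). Of the 31-base words of its principal transcript 74.7% occur in other genes, none of the 3 that share most being in the count table, so its counts are uncertain. Optn was at 105, 96.8, 91.2, 98.5 and 106 CPM in GDF15, at 95.3, 117, 119, 111 and 110 CPM in PairFed, and at 86.8, 104, 84.3, 105 and 99.6 CPM in Vehicle. All PairFed libraries but PairFed 1 lay above every Vehicle library, with a difference of 0.20 ± 0.08 (adjusted p = 0.183), which was 0.08 with the depth term (adjusted p = 0.769). Nbr1 averaged 208 ± 8.74, 222 ± 5.00 and 214 ± 9.87 CPM in the same groups.

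LAMP1 and LAMP2 are the main glycoproteins of the lysosomal membrane, and TFEB is the transcription factor for lysosomal genes. Lamp1 was at 749, 765, 805, 825 and 822 CPM in GDF15, at 871, 848, 835, 899 and 858 CPM in PairFed, and at 814, 819, 820, 790 and 873 CPM in Vehicle. It was lower in every GDF15 library than in every PairFed library, the fold change was -0.12 ± 0.05 log2, and this did not pass the threshold (adjusted p = 0.336). Lamp2 averaged 652 ± 26.1 CPM in GDF15, 601 ± 34.4 CPM in PairFed and 594 ± 33.7 CPM in Vehicle (0.13 ± 0.06 in GDF15 vs Vehicle, adjusted p = 0.254). Tfeb had the lowest level of the 32, at 9.97 ± 0.795 CPM in GDF15, 9.53 ± 1.09 CPM in PairFed and 8.78 ± 1.32 CPM in Vehicle, with overlapping libraries.

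Per kilobase of transcript the members spanned a wide range of levels. In Vehicle, Lamp1 was highest at 369 ± 13.6 CPM per kilobase, then Sqstm1 at 299 ± 35.0, Gabarapl1 at 203 ± 45.3, Lamp2 at 165 ± 9.34, Gabarap at 160 ± 5.37 and Bnip3 at 85.8 ± 22.7 CPM per kilobase. Sqstm1 and Gabarapl1 stood apart by more than their spread, while Gabarapl1, Lamp2 and Gabarap did not differ beyond theirs. Ulk1 was in the middle of that order at 24.3 ± 1.75 CPM per kilobase, with Becn1 at 13.6 ± 0.798, Atg14 at 5.41 ± 1.09 and Rb1cc1 at 4.43 ± 0.310 CPM per kilobase below it, and Atg2b and Tfeb were lowest at 3.91 ± 0.758 and 3.82 ± 0.576. Lengths are those of the principal transcript in GENCODE release M21, which may not be the transcripts that the authors counted. The 32 genes together summed to 4302 to 4547 CPM in GDF15, 4429 to 4583 CPM in PairFed and 4052 to 4406 CPM in Vehicle, a sum that the few abundant genes dominate.

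**Figure D3:**
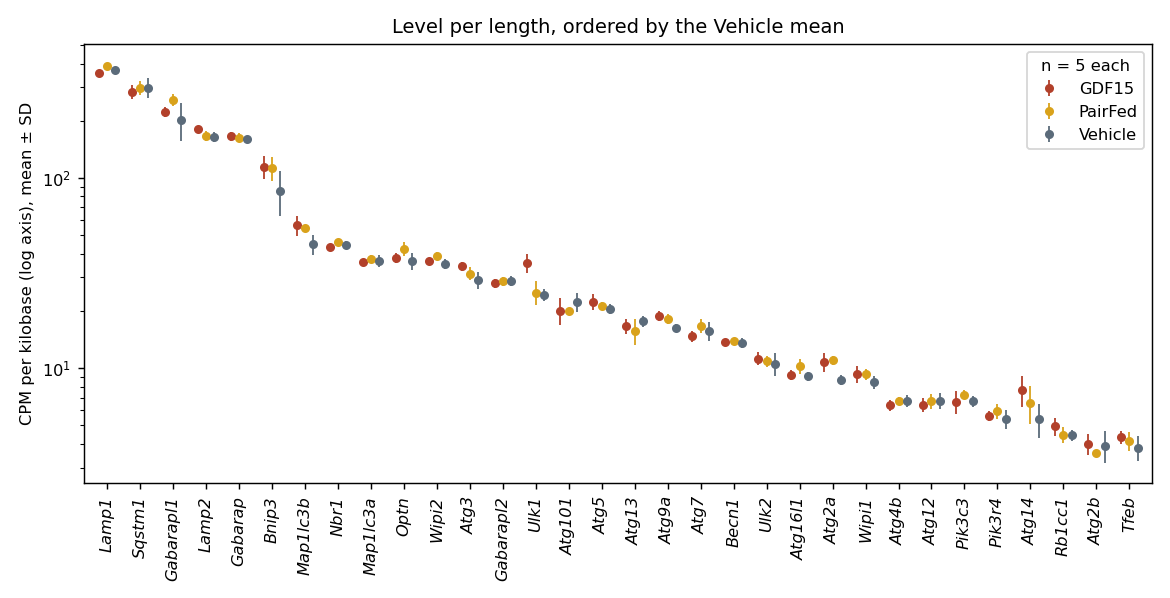
Level of each of the 32 genes per kilobase of its principal transcript (log axis, mean ± SD, n = 5 per group) in GDF15, PairFed and Vehicle, ordered by the Vehicle mean. The order runs from Lamp1 at 369 to Tfeb at 3.82 CPM per kilobase in Vehicle. The GDF15 mean and SD bar of Ulk1 stand above those of both other groups, though single libraries of GDF15 and PairFed overlap.

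The promoters of the 3 genes that changed are shown with that of Lamp1, the member with the most E-boxes of the kind that TFEB binds, so that the 2 kinds can be set side by side. Each line gives the 250 bases before the annotated start from RefSeq (GRCm38.p6, the build whose primary sequences are those of mm10), 5′ to 3′ on the strand of the gene, with the E-box letters CACGTG in capitals. Ulk1 lies on chromosome 5 (minus strand, promoter chr5:110810082-110810331), Atg2a on chromosome 19 (plus strand, chr19:6241418-6241667), Map1lc3b on chromosome 8 (plus strand, chr8:121590188-121590437) and Lamp1 on chromosome 8 (plus strand, chr8:13158911-13159160).
Ulk1: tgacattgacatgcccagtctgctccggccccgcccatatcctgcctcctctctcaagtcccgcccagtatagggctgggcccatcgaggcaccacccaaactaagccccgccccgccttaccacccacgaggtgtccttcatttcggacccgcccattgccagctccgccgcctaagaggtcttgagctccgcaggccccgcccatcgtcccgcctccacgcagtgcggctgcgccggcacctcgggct
Atg2a: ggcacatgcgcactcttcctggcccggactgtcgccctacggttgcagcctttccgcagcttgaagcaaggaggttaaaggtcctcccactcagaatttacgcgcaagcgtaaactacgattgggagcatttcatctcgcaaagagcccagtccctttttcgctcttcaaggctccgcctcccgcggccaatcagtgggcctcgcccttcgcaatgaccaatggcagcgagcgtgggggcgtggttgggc
Map1lc3b: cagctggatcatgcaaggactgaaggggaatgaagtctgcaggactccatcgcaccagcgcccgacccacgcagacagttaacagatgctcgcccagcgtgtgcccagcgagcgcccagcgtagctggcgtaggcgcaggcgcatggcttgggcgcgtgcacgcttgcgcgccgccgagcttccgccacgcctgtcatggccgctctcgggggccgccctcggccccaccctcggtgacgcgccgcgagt
Lamp1: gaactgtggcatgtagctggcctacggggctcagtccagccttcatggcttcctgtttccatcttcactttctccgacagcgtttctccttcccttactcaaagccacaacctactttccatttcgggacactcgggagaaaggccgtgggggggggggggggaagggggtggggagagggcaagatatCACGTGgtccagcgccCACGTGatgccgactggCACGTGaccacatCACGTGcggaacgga

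The Lamp1 promoter holds CACGTG 4 times, beginning 61, 45, 28 and 15 bases before the start, and those of Ulk1, Atg2a and Map1lc3b hold none. In windows from 250 bases before to 50 after the start, on either strand, CACGTG was found for 6 of the 26 members in the promoter table (Atg3, Atg5, Atg7, Atg14, Bnip3 and Lamp1), or 23.1%, against 8.09% of all 27025 genes in it. None of these 6 passed the threshold in any comparison. Their fold changes ran from -0.09 to 0.49 log2 in GDF15 vs Vehicle (median 0.18, against 0.05 over all 32). In PairFed vs Vehicle they ran from 0.05 to 0.39 (median 0.10, against 0.06 over all 32). In GDF15 vs PairFed they ran from -0.18 to 0.21 (median 0.04, against -0.02 over all 32). Whether the E-box bears on these differences was not tested. The CLEAR palindrome, which is the E-box with GT before and AC after it, was found for 0 of 26 members and 0.37% of all genes. The FOXO motif GTAAACA was found for 0 of 26 members and 4.05% of all genes. AGAACA, one arm of the glucocorticoid response element, was found for 4 of 26 members (Atg2b, Atg5, Lamp2 and Optn) and 21.3% of all genes, and the full element, that arm and its inverted copy with 3 bases between, for 0 of 26 and 0.0111% of all genes. TGACGTCA, the cyclic AMP response element, was found for 1 member, Atg5, and 2.03% of all genes. A match is a description of the letters, and its absence from these windows says nothing of a factor that binds elsewhere.

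Genes around the 32 were taken from 5 further lists, chosen with earlier results of these data known. A count set beside the share of all tested genes is therefore no test of a list. In the list of 14 transcription factors linked to autophagy genes, 3 rose in GDF15 vs Vehicle (2.02% of all tested genes rose) and none fell. They were Foxo3 and Foxo1, which insulin holds back, and Cebpb, which responds to fasting and glucocorticoids. The list median was -0.01 log2. By edgeR's test with all 15 libraries, no member of this list passed the threshold in PairFed vs Vehicle or in GDF15 vs PairFed. Among the 26 alternatives, Foxo3 passed it in 2 for PairFed vs Vehicle (adjusted p down to 0.0371). In GDF15 vs PairFed Foxo1 passed it in 3 (adjusted p down to 0.0125) and Cebpb in 1 (adjusted p = 0.0109).

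Foxo3 was at 89.6, 92.2, 74.3, 74.0 and 83.3 CPM in GDF15, at 69.2, 68.7, 64.8, 76.0 and 63.2 CPM in PairFed, and at 53.0, 67.6, 39.5, 51.9 and 47.2 CPM in Vehicle. GDF15 libraries were above all Vehicle libraries, and PairFed libraries lay between them with some overlap on both sides. Foxo3 rose 1.59-fold in GDF15 vs Vehicle (0.67 ± 0.11 SE, adjusted p = 0.00259), and stood at 0.40 ± 0.11 in PairFed vs Vehicle (adjusted p = 0.0972). Foxo1 averaged 83.3 ± 18.6 CPM in GDF15, 55.8 ± 10.4 CPM in PairFed and 44.9 ± 5.22 CPM in Vehicle, and rose 1.85-fold in GDF15 vs Vehicle (0.89 ± 0.15, adjusted p = 0.00573). In GDF15 vs PairFed Foxo1 was at 0.58 ± 0.15 (adjusted p = 0.0985). Cebpb averaged 312 ± 114 CPM in GDF15, 180 ± 27.2 CPM in PairFed and 130 ± 32.3 CPM in Vehicle, and rose 2.40-fold in GDF15 vs Vehicle (1.26 ± 0.23, adjusted p = 0.0125). Foxo1 and Cebpb were short of the threshold in PairFed vs Vehicle (adjusted p = 0.308 and 0.324). The 3 calls were kept without each library in turn and lost when the immediate-early score entered the model (adjusted p = 0.276 for Foxo3, 0.467 for Foxo1 and 0.429 for Cebpb). Cebpb was also lost with only the 2 groups compared (adjusted p = 0.0515) and in the shallower libraries (adjusted p = 0.0551).

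In the list of 17 other cargo receptors, 2 rose and none fell in GDF15 vs Vehicle (2.02% of all tested genes rose). There 16 of 17 had positive fold changes, against 5997 of all 12274 tested genes, and the median was 0.10 log2. Positive fold changes were also held by 15 of 17 in PairFed vs Vehicle (6121 of all 12274), and by 9 of 17 in GDF15 vs PairFed (6160 of all 12274). Retreg1 (FAM134B), a receptor for the autophagy of endoplasmic reticulum, was at 124, 192, 92.3, 115 and 136 CPM in GDF15, at 120, 137, 72.1, 88.6 and 86.2 CPM in PairFed, and at 64.1, 75.3, 61.1, 71.3 and 78.3 CPM in Vehicle. All GDF15 libraries lay above all Vehicle libraries. Retreg1 rose 1.88-fold in GDF15 vs Vehicle (0.91 ± 0.20 SE, adjusted p = 0.0255), a call lost without Vehicle 1, Vehicle 3, Vehicle 4, GDF15 1 or GDF15 2 (adjusted p up to 0.0776). It was also lost with 1 surrogate variable (0.77, adjusted p = 0.119), in the shallower libraries (0.91, adjusted p = 0.0585) and with the immediate-early score (0.42, adjusted p = 0.789). Its difference in PairFed vs Vehicle was 0.53 ± 0.20 (adjusted p = 0.196). Ncoa4, the receptor for ferritin, averaged 225 ± 15.27 CPM in GDF15, 211 ± 12.99 CPM in PairFed and 189 ± 13.6 CPM in Vehicle, and rose 1.19-fold in GDF15 vs Vehicle (0.25 ± 0.07, adjusted p = 0.0488). That call was kept only without Vehicle 5, GDF15 3 or PairFed 3 and lost without each of the other 12 libraries (adjusted p up to 0.162), and with the immediate-early score Ncoa4 stood at 0.12 (adjusted p = 0.931). In the list of 25 other genes of autophagosome formation and fusion none passed the threshold in any of the 3 comparisons. Fold changes in this list ran from -0.10 to 0.91 log2 in GDF15 vs Vehicle (median 0.06). They ran from -0.19 to 0.35 in PairFed vs Vehicle and from -0.16 to 0.56 in GDF15 vs PairFed. The smallest p, not the largest change, was that of Trp53inp2, which shuttles between nucleus and autophagosome. It was at 252 ± 13.6 CPM in GDF15, 206 ± 20.1 CPM in PairFed and 204 ± 25.2 CPM in Vehicle (0.30 ± 0.08 in GDF15 vs Vehicle, adjusted p = 0.0595).

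**Figure D4:**
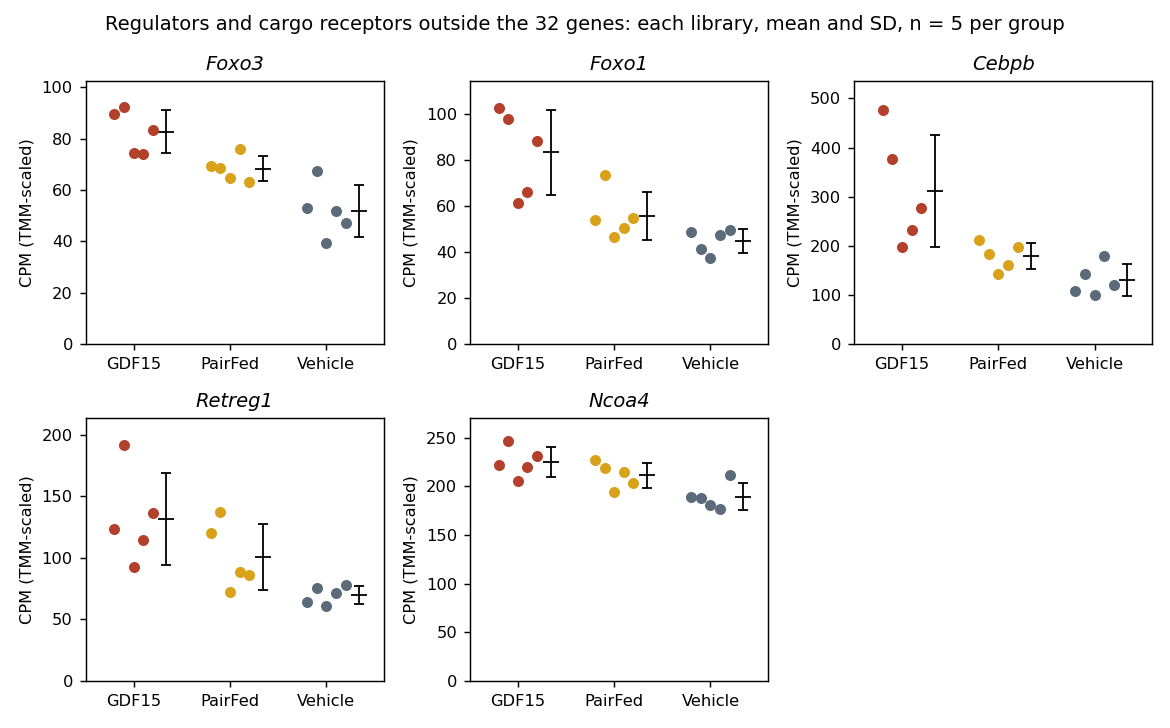
CPM (vertical axis, from 0) in each library of GDF15, PairFed and Vehicle for 5 genes outside the 32 that rose in GDF15 vs Vehicle, with the group mean and SD (n = 5). For Foxo3, Foxo1, Cebpb and Retreg1 each GDF15 library is above each Vehicle library, while for Ncoa4 the groups overlap.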

How the data were processed

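RNA of 15 mouse livers was measured by RNA sequencing. Per the labels' protocols, TRIzol and RNeasy were used for extraction and a strand-keeping (directional) kit for the libraries. The authors deposited one table of estimated counts per gene symbol, whole numbers not scaled to depth; per the submitters' processing notes, which name Salmon, DESeq2 and mm10 and nothing more, they were read as rounded Salmon output. No source read here states the transcript set, strand setting or filter; the lowest sum of a gene over the libraries is 5. Columns were assigned to groups by name, and the order within a group ties no column to an animal. In the annotation 7 of the 32 genes overlap another counted gene, each on the opposite strand (Becn1, Atg9a, Atg2b, Atg4b, Map1lc3b, Sqstm1 and Lamp1). The kit kept the strand, but with the strand setting of the counting unknown, their counts may still hold reads of that gene. No 31-base word is shared with another gene, on either strand, by 16 of 32.

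The rest was computed here. With edgeR 4.0.16 in R 4.3.3, filterByExpr (count of 10, total of 15) left 12274 genes with 99.9% of the counts. After TMM scaling, all 15 libraries entered one robust quasi-likelihood fit, with Benjamini-Hochberg adjustment across the tested genes in each contrast. SEs come from the F statistic, and intervals from its t distribution. The common biological coefficient of variation was 13.3%. Lengths and overlaps are from GENCODE M21 (GRCm38), and promoters from RefSeq GRCm38.p6; 26 of the 32 symbols matched. Named genes are those past the threshold, the 4 members with the smallest p in each contrast, and 1 to 5 of each further list; Atg14, Bnip3 and Sqstm1 were added to those given per library after their values were seen. Alternatives were DESeq2 (1.42.0) size factors or upper-quartile factors, no filter or 10 CPM in 5 libraries, the DESeq2 Wald test, limma-voom (limma 3.58.1), only the groups compared, a term for the 5 deeper libraries, 1 surrogate variable (sva 3.50.0) and leaving out each library. Added after the data were seen were an immediate-early score of 14 genes as a covariate and a fit of the 10 shallower libraries. The 32 genes and all lists were chosen with earlier results of these data known.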

Additional observations from a re-analysis of the deposited data

Results flagged for a closer look

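Among the 96 sets of 5 libraries (32 genes in 3 groups), 4 held a library farther from the nearest other than Dixon's 95% limit of 0.71 of the set's range allows; chance flags about 1 set in 20. Atg7 in GDF15 4 was at 62.1 CPM, above 52.7 to 55.3 CPM in the other GDF15 libraries. In PairFed 1, the PairFed library with the lowest total count, Becn1 was at 56.5 CPM, below 61.2 to 62.8 CPM in the others, and Pik3r4 was at 24.0 CPM, below 28.6 to 30.0 CPM in the others. Atg13 in Vehicle 3 was at 69.7 CPM, above 60.1 to 61.4 CPM in the other Vehicle libraries. None of these 4 genes passed the threshold of edgeR's test in any comparison.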

How the results depend on the processing

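Of the 96 results (32 genes, 3 comparisons), 54 kept their sign under all 26 alternatives, the 5 called ones among them, and 42 changed sign in at least 1. In GDF15 vs Vehicle, 356 genes were called in all, against 642 with the DESeq2 test, 194 with only the 2 groups, 159 with 1 surrogate variable, 9 with the immediate-early score, 151 in the shallower libraries and 134 to 476 without 1 library. Of the 32, 3 were called, against 1 with upper-quartile factors, with only the 2 groups and in the shallower libraries, 0 with the immediate-early score and 1 to 4 without 1 library; their median was 0.0101 with upper-quartile factors and 0.0249 to 0.0739 without 1 library.

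In PairFed vs Vehicle, 35 genes were called, against 339 with DESeq2, 71 with 1 surrogate variable, 0 with the depth term, the immediate-early score or the shallower libraries and 0 to 135 without 1 library. The 1 member called became 0 with upper-quartile factors, the 10 CPM filter, limma-voom, the depth term, the immediate-early score and the shallower libraries, and was 0 to 1 without 1 library. The median of the 32 was 0.0232 in the shallower libraries and 0.0437 to 0.0856 without 1 library. Ulk1 turned to -0.0767 with the immediate-early score and ran from -0.0414 to 0.1003 without 1 library.

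In GDF15 vs PairFed, 96 genes were called, against 259 with DESeq2, 9 with the depth term, 61 with the immediate-early score, 0 in the shallower libraries and 21 to 171 without 1 library. The 1 member called became 0 with the depth term and in the shallower libraries, and was 0 to 1 without 1 library. The median of the 32 was 0.0228 with the depth term and -0.0332 to -0.0046 without 1 library. With the depth term Atg2a was 0.0398 and Atg16l1 0.0074; in the shallower libraries they were 0.1087 and 0.024. Atg2a ran from -0.0783 to 0.0155 without 1 library, and Map1lc3b was -0.0306 with the immediate-early score. The cause of these changes was not tested.

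The immediate-early score and the fit of shallower libraries were chosen after seeing the data; in that fit the lone PairFed library is assumed to vary like the other groups. No paired analysis was possible because the column numbers tie no library of one group to one of another. The 32 genes had mean levels down to 8.78 CPM (Tfeb in Vehicle), where counting error limits precision most.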

Other observations

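Genes of lysosomal enzymes, other lysosomal proteins and the proton pump did not pass the threshold in any comparison (0 of 32 tested of 33 listed). By edgeR's test the unadjusted p was below 0.05 for 6 in GDF15 vs Vehicle, 9 in PairFed vs Vehicle and 10 in GDF15 vs PairFed. The shares over all tested genes were 16.7%, 16.9% and 13.3%. In GDF15 vs PairFed 24 of the 32 were below 0, the median being -0.08 log2, against 0.00 over all tested genes. The smallest p was that of Npc1, which exports cholesterol from the lysosome, at 166 ± 26.3 CPM in GDF15, 190 ± 9.90 CPM in PairFed and 137 ± 22.2 CPM in Vehicle (mean ± SD, n = 5 each). In PairFed vs Vehicle it stood at 0.47 ± 0.11 (SE, adjusted p = 0.0735). All PairFed libraries were above all Vehicle libraries, the lowest being 177 CPM in PairFed against a highest of 162 CPM in Vehicle.

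The 30 genes of nutrient sensing upstream of ULK1, mTORC1 and AMPK among them, did not pass the threshold either (unadjusted p below 0.05 for 5 in GDF15 vs Vehicle, for 2 in PairFed vs Vehicle and for 4 in GDF15 vs PairFed, beside the same shares over all tested genes). Their fold changes ran from -0.44 to 2.20 log2 in GDF15 vs Vehicle (median 0.03). The range was -0.13 to 0.93 in PairFed vs Vehicle (median 0.04) and -0.73 to 1.27 in GDF15 vs PairFed (median 0.02). The smallest p was that of Castor1, an arginine sensor of mTORC1, at 2.23 ± 0.207 CPM in GDF15, 3.68 ± 0.479 CPM in PairFed and 3.05 ± 0.682 CPM in Vehicle. In GDF15 vs PairFed it stood at -0.73 ± 0.18 (adjusted p = 0.0714), with the highest GDF15 library at 2.52 CPM and the lowest PairFed library at 3.15 CPM. At this level a library holds few reads of Castor1, which limits the precision.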
